A study of Mus musculus with 6 samples.

Results

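Lipoprotein lipase and the proteins that mature it, inhibit it and receive its lipoproteins were followed through 8 genes of the newborn mouse cortex. These were Lpl, Lmf1, Lmf2, Angptl4, Vldlr, Lrp8, Lrp1 and Sorl1, out of 52550 gene identifiers counted and 14913 genes with enough reads to be tested. The genes were chosen by their function from the knockout-against-control values of these same libraries, in which the low level of Lpl had already been seen. Their values in that comparison are therefore a description, and the adjusted p values below only place them among all genes tested. All 8 passed the filter on low counts.

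Polyadenylated RNA was sequenced from 1 cortical hemisphere per library, taken from C57BL6/J pups at postnatal day 2. The control libraries (n = 3) carried floxed Slc7a5 alleles without Cre (Slc7a5fl/fl; Emx1Cre-), although the series' design text calls these mice wild type. The knockout libraries (n = 3) carried the same floxed alleles with Cre driven by Emx1 (Slc7a5fl/fl; Emx1Cre+), so an effect of the Cre allele and one of the deletion cannot be told apart. Emx1 is active in the progenitors of cortical excitatory neurons and of most cortical glia. Microglia, blood vessels and most interneurons lie outside that lineage and keep Slc7a5, which encodes the light chain of a carrier for large neutral amino acids such as leucine. The labels give each group the letters A, B and C, and the design text calls the samples biological replicates.

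Gene counts per library ran from 8249436 to 10372582. Slc7a5 was at 20.2, 40.7 and 26.1 CPM (counts scaled to the size of the library) in controls A, B and C and at 15.6, 9.37 and 11.4 CPM in the knockouts, without overlap (log2 change -1.25 ± 0.28, SE, edgeR adjusted p = 0.4, and 6.95e-04 in DESeq2). All 7 genes of the cortex identity list were detected, with summed levels of 2304 to 2505 CPM in controls and 2273 to 2375 CPM in knockouts. With the block Emx1 and Slc17a7 were among the genes of this list called lower. Emx1 itself was at 17.1, 25.4 and 13.6 CPM in controls and at 7.92, 10.9 and 8.21 CPM in knockouts (log2 change -1.05 ± 0.22, edgeR adjusted p = 0.179, and 1.75e-04 with the block), and the labels do not say whether Cre sits in that gene. Reads outside annotated exons made up 22.5 to 26.5% of mapped reads in controls and 27.4 to 27.9% in knockouts, so this measure of the libraries separated the genotypes as well. Same-letter libraries of both genotypes deviated together, so the value with the letter as a block is given where it changes a call.

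Lipoprotein lipase is a secreted enzyme that splits the triglycerides of lipoproteins and frees fatty acids for the cells nearby. It folds in the endoplasmic reticulum with the help of lipase maturation factor, and outside the cell it is inactivated by angiopoietin-like proteins. In brain, lipoproteins built around apolipoprotein E are taken up by receptors of the LDL receptor family, and a pair of these, encoded by Vldlr and Lrp8, also receive reelin, the signal that orders migrating cortical neurons.

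The coding sequences show what joins and separates these genes, and the stretches below are printed because they hold the parts by which the enzyme cuts and the receptors signal. They were read from GENCODE M21 transcripts (build GRCm38), each within 1 coding exon, 5′ to 3′ on the gene's own strand. In the first, capitals mark the codons of Gly-any-Ser-any-Gly, the lipase pattern around the catalytic serine, at codons 157 to 161 of the 474 of Lpl (chr8:68894651-68894695, plus strand).
Lpl: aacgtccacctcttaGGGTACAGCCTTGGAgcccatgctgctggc
In the others, capitals mark the codons of Asn-Pro-any-Tyr, the internalisation signal of LDL receptor tails, searched in the last 120 codons. The pattern lies at codons 834 to 837 of the 873 of Vldlr (chr19:27247925-27247966, plus strand) and at codons 855 to 858 of the 955 of Lrp8 (chr4:107869046-107869087, plus strand). Lrp1, with 4545 codons, has 2 of them, at codons 4471 to 4474 (chr10:127539293-127539334, minus strand) and 4505 to 4508 (chr10:127539049-127539090, minus strand).
Vldlr: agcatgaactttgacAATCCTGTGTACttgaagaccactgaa
Lrp8: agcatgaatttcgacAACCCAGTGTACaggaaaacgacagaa
Lrp1, upstream copy: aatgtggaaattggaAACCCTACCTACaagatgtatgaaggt
Lrp1, downstream copy: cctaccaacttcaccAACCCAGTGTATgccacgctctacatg

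The Vldlr and Lrp8 stretches shared 33 of 42 bases, whereas either shared 19 of 42 with each Lrp1 copy. Within the 12 bases in capitals, Vldlr and Lrp8 shared 10, whereas Lrp8 and the downstream Lrp1 copy shared 11. The tail pattern occurred in the last 120 codons of 0.890% of 21469 protein-coding genes, and had no match in that window of Sorl1, Lpl, Lmf1, Lmf2 or Angptl4. The lipase pattern is loose, since 18.5% of the same genes held it somewhere. Lpl held a second copy at codons 218 to 222, Lrp1 held 2, and the other members held none. A match is a run of codons and not evidence of use.

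Lpl (ENSMUSG00000015568, chr8:68880491-68907448, plus strand, GRCm38 as for all positions) was lower in the knockout than in the control cortex, and it was the member that stood furthest from 0. Its level was 153, 133 and 110 CPM in controls A, B and C, from 1517, 1069 and 1076 reads. In knockouts A, B and C it was 95.8, 68.7 and 55.6 CPM, from 931, 741 and 535 reads. Every knockout library lay below every control library, and within each genotype the level was highest in A and lowest in C.

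The group means of Lpl were 132 ± 21.6 and 73.4 ± 20.5 CPM (SD, n = 3), so the knockout held 0.557 times the control level. Knockout minus control on the log2 scale was -0.67, -0.95 and -0.98 for letters A, B and C. In edgeR's quasi-likelihood test the log2 change was -0.84 ± 0.20 (SE, 95% interval -1.31 to -0.38), which did not pass once adjusted over every gene tested (Benjamini-Hochberg adjusted p = 0.419). With the letter as a block it was -0.86 ± 0.097 and passed (edgeR adjusted p = 2.90e-07). It also passed in DESeq2 (adjusted p = 0.00176), in edgeR with no low-count filter (7.84e-10) and in edgeR without knockout A (0.0118, log2 change -1.08). Among the 9582 genes with a mean of at least 10 CPM, 6 had a log2 change as low as that of Lpl or lower, Lpl included. In bulk tissue, fewer cells that make a transcript and less transcript per cell cannot be told apart.

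**Figure D1:**
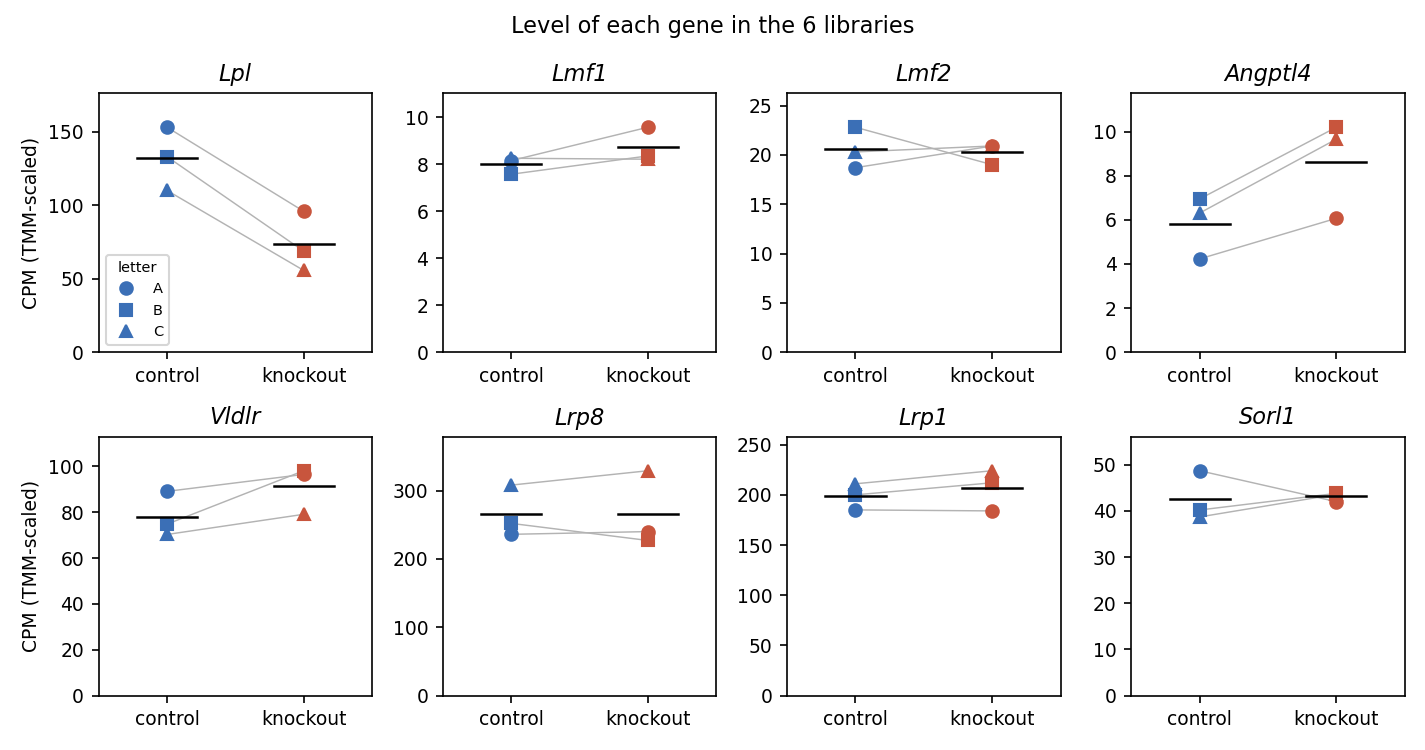
Level of each of the 8 genes in CPM (linear axis from 0) in the control (blue) and knockout (red) libraries, with letters A, B and C as circles, squares and triangles, grey lines joining the same letter and black bars at the group means. Only for Lpl do the groups not overlap, with 110 to 153 CPM in controls and 55.6 to 95.8 CPM in knockouts.

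Lpl is known from microglia near proliferating or myelinating tissue, from hippocampal and other neurons and from vessel walls, so the marker lists of those cells are set beside it. Of 13 tested microglial markers 11 had higher values in the knockout, with summed levels of 159 to 195 CPM in controls and 189 to 231 CPM in knockouts. Csf1r, the growth factor receptor of microglia, was at 13.2, 18.0 and 16.4 CPM in controls and at 23.7, 19.2 and 25.1 CPM in knockouts. Its log2 change of 0.52 ± 0.16 did not pass (edgeR adjusted p = 0.473, and 0.0726 with the block). The 2 lower microglial genes were Tmem119 (log2 change -0.26 ± 0.41) and Ctss (-0.011 ± 0.19). The 7 genes of microglia in proliferative regions, such as Spp1 and Igf1, summed to 24.1 to 35.4 CPM and 27.2 to 38.9 CPM, with 3 of 4 tested genes higher. No gene of any marker list had 0 reads over all libraries.

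Some neuronal and glial lists had mostly lower values in the knockout. Upper-layer projection neuron markers had lower values in 9 of 10 genes, with sums of 2125 to 2466 CPM in controls and 1838 to 2000 CPM in knockouts. Mef2c was the largest part of these sums, at 1140, 1270 and 1070 CPM in controls and 964, 915 and 903 CPM in knockouts. Rorb and Rasgrf2 were among the upper-layer genes called lower with the block, whereas Cux1 and Cux2 had log2 changes of 0.025 ± 0.099 and -0.07 ± 0.11. Oligodendrocyte lineage markers had lower values in 7 of 8 genes, with sums of 567 to 702 CPM and 524 to 556 CPM, and none of these genes was called by edgeR, with or without the block, or by DESeq2. Deep-layer and subplate markers had lower values in 7 of 10 genes, with overlapping sums of 1829 to 2025 CPM and 1809 to 1971 CPM. Bcl11b was the largest part of these sums, at 940, 907 and 799 CPM in controls and 943, 813 and 953 CPM in knockouts. Sox5, Ccn2 and Cplx3 were lower without overlap (log2 changes -0.23 ± 0.099, -0.35 ± 0.11 and -0.68 ± 0.24). The groups of the other genes overlapped, and none of the list was called by edgeR, with or without the block, or by DESeq2. Hippocampal markers were higher in 5 of 7 tested genes, with sums of 566 to 672 CPM and 700 to 749 CPM. Most of these sums was Zbtb20, at 547, 436 and 446 CPM in controls and 606, 568 and 571 CPM in knockouts. The other tested hippocampal genes had log2 changes of -0.096 to 0.17, with overlapping groups. Endothelial markers were higher in 9 of 11 genes, with sums of 216 to 259 CPM and 256 to 268 CPM. Radial glia and progenitor markers were higher in 8 of 9 genes, with sums of 341 to 388 CPM and 394 to 428 CPM, and interneuron markers in 10 of 11, with sums of 1527 to 1649 CPM and 1585 to 1948 CPM. Gad2 was the only interneuron gene called with the block, at 106, 60.5 and 86.1 CPM in controls and 117, 116 and 127 CPM in knockouts. Its log2 change was 0.51 ± 0.16 (edgeR adjusted p = 0.539, and 0.0191 with the block). Astrocyte markers were lower in 6 of 9, with sums of 805 to 895 CPM and 797 to 872 CPM. The part of these lists, and of the reads outside exons, in the Lpl result was not tested.

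**Figure D2:**
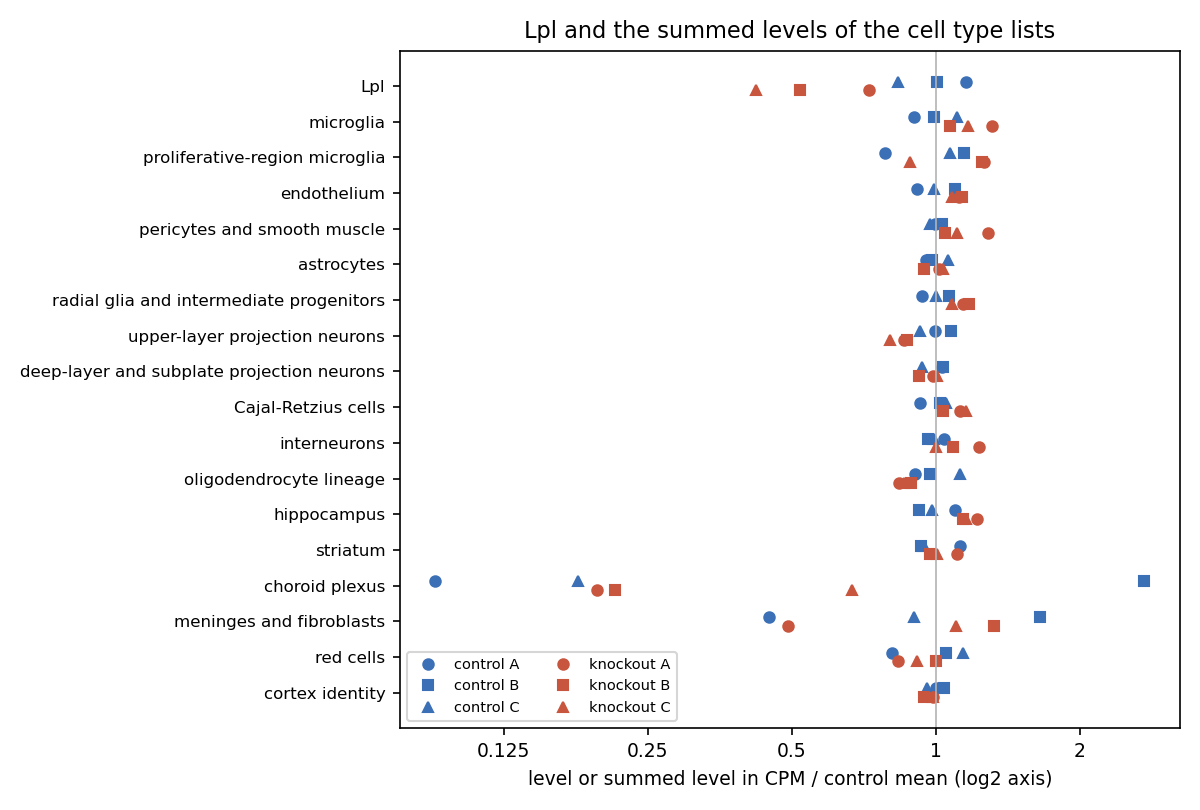
Level of Lpl and summed level of each cell type list in each library, divided by the control mean (log2 axis), with controls in blue above and knockouts in red below on each line. Knockout Lpl lies well left of 1, upper-layer and oligodendrocyte sums lie slightly left, and the choroid plexus sum ranges from 5.23 CPM in control A to 159 CPM in control B.

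The genes with the profile most like that of Lpl were sought among 9171 others with a mean of at least 10 CPM, leaving out provisional Gm-number and Rik gene models, by the mean absolute difference of centred log2 CPM over the 6 libraries. The nearest was Synpo, an actin-binding protein of dendritic spines, at a mean difference of 0.129. Its level was 27.8, 29.6 and 24.9 CPM in the controls and was 21, 13.8 and 15.1 CPM in the knockouts. Next came Kcnn1, a calcium-activated potassium channel (0.139), Cap2, an actin regulator (0.153), Gpr17, a receptor of differentiating oligodendrocyte precursors (0.172), and Plvap, a protein of fenestrated endothelium (0.181). Their log2 changes ran from -0.81 ± 0.24 for Kcnn1 to -0.50 ± 0.18 for Gpr17. None of these 5 passed edgeR without the block (adjusted p from 0.192 for Synpo to 0.553 for Gpr17), and Synpo, Kcnn1 and Plvap passed with it (0.00285, 8.08e-04 and 0.0361). The 5 genes were selected for this likeness, so their changes are no separate evidence.

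Among the factors that act on the enzyme, Angptl4 (ENSMUSG00000002289, chr17:33773750-33781830, minus strand), its secreted inhibitor, had a higher value in each knockout than in the control of the same letter. It was at 4.23, 6.95 and 6.31 CPM in controls A, B and C, from 42, 56 and 62 reads. In knockouts A, B and C it was at 6.07, 10.2 and 9.66 CPM, from 59, 110 and 93 reads. Knockout A lay within the control range, and the other knockouts lay above it.

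The letter differences of Angptl4 were 0.52, 0.55 and 0.61 on the log2 scale, close to one another. The means were 5.83 ± 1.42 and 8.65 ± 2.25 CPM (SD, n = 3), with a log2 change of 0.58 ± 0.25 (SE, 95% interval 0.056 to 1.10). The change did not pass over all genes, without the block (edgeR adjusted p = 0.682) or with it (0.196). Angptl4 is induced in many cell types, including endothelium and pericytes. Pericyte and smooth muscle markers summed to 114 to 121 CPM in controls and 123 to 151 CPM in knockouts, with 4 of 6 tested genes higher, and their part in the Angptl4 values was not tested.

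Per unit of exon length, Lpl exceeded its inhibitor 12.2-, 6.45- and 5.87-fold in the controls and by 5.33-, 2.28- and 1.94-fold in knockouts. All knockout ratios were below all control ratios. By the longest transcript the ratios were larger, 29, 15.3 and 14 in the controls and 12.7, 5.42 and 4.62 in the knockouts, so that only their order and not their size holds for both lengths. The ratio combines both genes' values above and is no further evidence for either.

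The maturation factors differed little. Lmf1 (ENSMUSG00000002279, chr17:25579085-25662826, plus strand), the endoplasmic reticulum protein that lets the lipase fold into its active form, was at 8.15, 7.57 and 8.25 CPM in controls A, B and C and at 9.57, 8.35 and 8.21 CPM in knockouts. The ranges overlapped, and the log2 change was 0.12 ± 0.18 (95% interval -0.27 to 0.51, edgeR adjusted p = 0.935). Lmf2 (ENSMUSG00000022614, chr15:89351004-89355659, minus strand), a related protein whose role is less clear, was at 18.7, 22.8 and 20.3 CPM in controls and at 20.9, 19 and 20.9 CPM in knockouts. Its knockout values lay inside the control range, with a log2 change of -0.022 ± 0.14 (95% interval -0.31 to 0.27, edgeR adjusted p = 0.988). These intervals hold no change of the size seen for Lpl, but leave room for smaller ones, and Lmf1 rested on only 61 to 93 reads per library.

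Of the receptors, Vldlr (ENSMUSG00000024924, chr19:27216484-27254231, plus strand), which binds lipoproteins and reelin, had a higher value in each knockout than in the control of its letter. It was at 89.1, 74.8 and 70.3 CPM in controls A, B and C and at 96.5, 98.1 and 79.1 CPM in knockouts. Knockout C lay within the control range and the other knockouts above it. The log2 change was 0.23 ± 0.12 (95% interval -0.027 to 0.48, edgeR adjusted p = 0.747, and 0.328 with the block).

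Lrp8 (ENSMUSG00000028613, chr4:107802261-107876840, plus strand), the other reelin receptor, had the same mean level in both genotypes. It was at 236, 252 and 308 CPM in controls A, B and C and at 240, 227 and 329 CPM in knockouts. The letter C libraries were highest in both genotypes, and the group means were the same to 3 digits at 265 ± 38.1 and 265 ± 55.7 CPM. Its log2 change was -9.1e-04 ± 0.14 (95% interval -0.31 to 0.31, edgeR adjusted p = 1). The block narrowed the interval to between -0.20 and 0.18.

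Lrp1 (ENSMUSG00000040249, chr10:127538161-127621148, minus strand), a large endocytic receptor for apolipoprotein E and many other ligands, was at 185, 200 and 211 CPM in controls A, B and C and at 184, 212 and 224 CPM in knockouts. The groups overlapped nearly throughout, and the log2 change was 0.056 ± 0.11 (95% interval -0.17 to 0.28, edgeR adjusted p = 0.950). Sorl1 (ENSMUSG00000049313, chr9:41964720-42124297, minus strand), a sorting receptor that carries cargo between the Golgi and endosomes, was at 48.7, 40.2 and 38.7 CPM in controls and at 42.0, 43.8 and 43.6 CPM in knockouts. All 3 knockout values lay inside the control range, and the log2 change was 0.019 ± 0.12 (95% interval -0.23 to 0.27, edgeR adjusted p = 0.988).

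Of the 8 genes, 5 were above and 3 below the control level in the knockout (median log2 change 0.038), beside 0.0011 and 50.2% higher values over all genes tested. None was called by edgeR without the block, where 0.0335% of genes were called. At an unadjusted p under 0.05 there were 2, Lpl and Angptl4, against 7% of genes. With the block 1 of 8 was called, Lpl, against 0.845% of genes in either direction and 0.516% called lower. DESeq2 and edgeR without the filter also called Lpl alone among the 8, where they called 0.139% and 0.277% of the genes tested. In 1 of 8 genes, Lpl, the groups did not overlap with the knockout lower, as in 6.28% of all genes, and in 0 of 8 with the knockout higher, as in 5.89%. The comparison had a part in choosing these genes, so nothing is read from those shares.

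**Figure D3:**
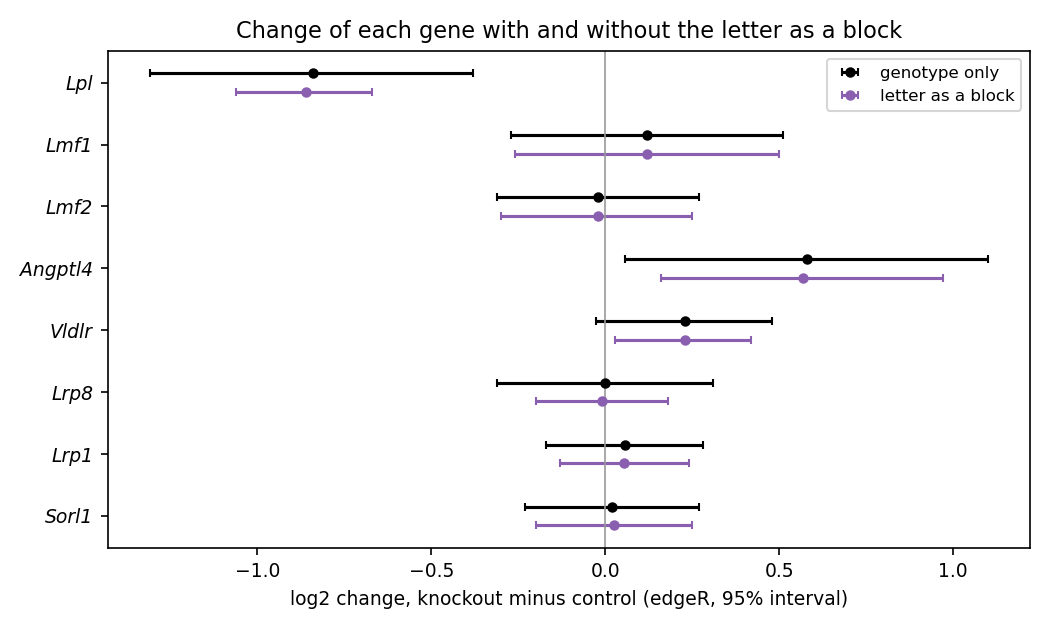
Log2 change of each gene, knockout minus control, from edgeR with 95% intervals, for the fit on genotype only (black) and with the letter as a block (purple). Lpl lies at -0.84 and -0.86, and the intervals of Lmf1, Lmf2, Lrp8, Lrp1 and Sorl1 span 0 in both fits.

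Levels of the 8 genes were compared with one another per kilobase of the union of annotated exons (FPKM) and, where it matters, of the longest transcript. In controls the order of the means was Lrp8 (25.2 ± 3.62 FPKM, SD, n = 3), Lpl (12.6 ± 2.06), Lrp1 (11.2 ± 0.758), Vldlr (7.75 ± 0.975), Lmf2 (5.30 ± 0.533), Sorl1 (3.76 ± 0.477), Angptl4 (1.65 ± 0.402) and Lmf1 (0.588 ± 0.0272). Lrp8 exceeded 86.1% of the genes tested, Lpl 74.1% and Lmf1 10.3%. The control ranges of Lpl and Lrp1 overlapped, and those of all other neighbours in this order did not.

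In knockouts, Lpl was at 9.14, 6.56 and 5.30 FPKM in A, B and C, all below the 10.4 to 12.6 FPKM of Lrp1 and overlapping the 7.85 to 9.75 FPKM of Vldlr. The place of Lpl depends on the length used, because the union of its annotated exons, retained-intron transcripts included, has 10478 bases and its longest transcript 4115. By the longest transcript Lpl had 32.0 ± 5.24 FPKM in controls and 17.8 ± 4.98 FPKM in knockouts, against 13.3 ± 0.903 and 13.9 ± 1.36 FPKM for Lrp1. Lmf1 also moved, to 2.07 ± 0.0957 FPKM in controls, above the 1.76 ± 0.430 FPKM of Angptl4. Lrp8 exceeded Vldlr per length 2.53-, 3.23- and 4.2-fold in the controls and by 2.38-, 2.21- and 3.99-fold in knockouts.

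**Figure D4:**
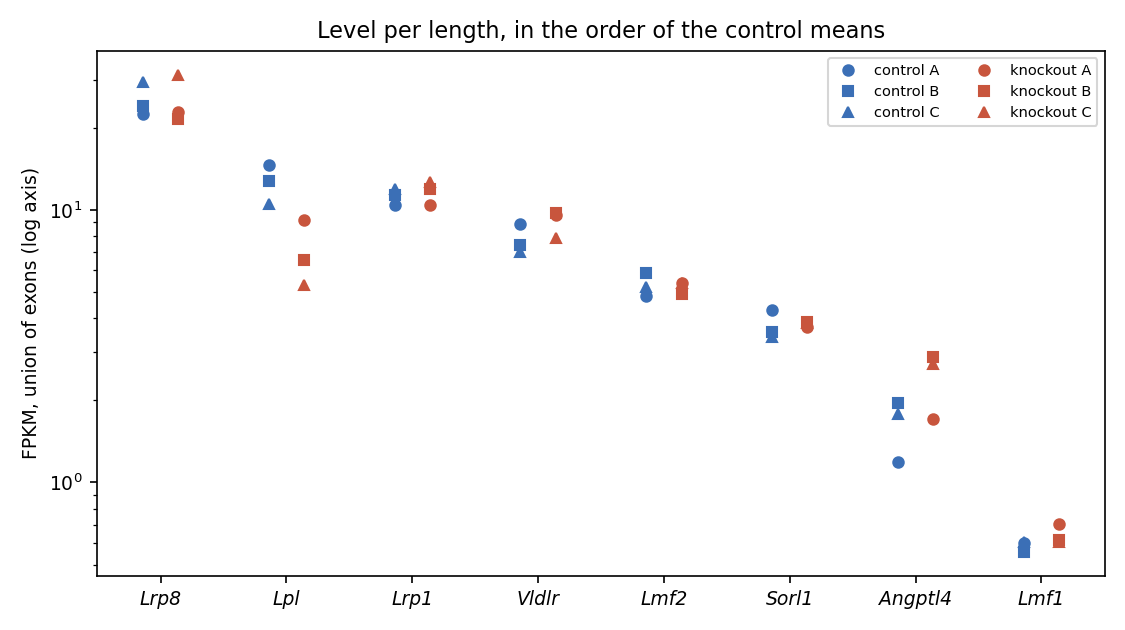
FPKM over the union of exons (log axis) of the 8 genes in each library, in the order of the control means, with controls in blue and knockouts in red. Lpl lies between Lrp8 and Lrp1 in controls, and its 3 knockout values of 5.30 to 9.14 lie below all of Lrp1.

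The rest of the pathway was read from 8 lists with 128 entries, of which 105 were tested, 49 above and 56 below the control level (median log2 change -0.019). None passed in edgeR without the block or in DESeq2, 12 had an unadjusted p under 0.05, where 7% of all genes did, and with the block 4 passed, 1 higher and 3 lower, where 0.845% of all genes did. The 4 were Abcg1, Abcg4, Acsl4 and Fabp3.

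The list of other lipases, activators and inhibitors had 11 of 19 genes tested, 4 higher and 7 lower (median -0.058). Gpihbp1, the endothelial protein that anchors the lipase in peripheral capillaries, was nearly undetected, at 0 to 0.306 CPM. Apoc2, the activator of the lipase, had 0 CPM in all 6 libraries. Sdc1, a heparan sulfate proteoglycan of the cell surface, was at 15.6, 14.9 and 18.2 CPM in controls and at 14.2, 9.74 and 13.9 CPM in knockouts (log2 change -0.37 ± 0.17, edgeR adjusted p = 0.712). Furin, a protease that can cleave lipases and angiopoietin-like proteins, had a log2 change of -0.17 ± 0.13.

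Among apolipoproteins and genes that load lipid onto them, 7 of 12 tested were higher and 5 lower (median 0.065). Abcg1, which exports cholesterol to lipoproteins, was at 4.43, 4.47 and 4.99 CPM in controls A, B and C and at 9.16, 8.63 and 8.62 CPM in knockouts. The groups lay far apart, and its log2 change of 0.92 ± 0.20 passed with the block (edgeR adjusted p = 0.0191) and not without it (0.179). Abcg4, its relative in neurons and glia, went the other way, at 50.3, 53.3 and 58.7 CPM in controls and 36.4, 32.6 and 43.8 CPM in knockouts. Its log2 change was -0.52 ± 0.13 (edgeR adjusted p = 0.276, and 0.00615 with the block). Apoe, the main apolipoprotein of brain, was at 318, 349 and 395 CPM in controls and 413, 343 and 416 CPM in knockouts, with overlap (0.14 ± 0.11, edgeR adjusted p = 0.850).

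The other LDL receptor family and VPS10 receptors had 4 higher and 12 lower values in 16 tested genes (median -0.079), and none passed in either fit. Lrp3 had higher values in every knockout, 60.8, 47.1 and 51.8 CPM against 44.9, 39.2 and 43.1 CPM (0.33 ± 0.12, edgeR adjusted p = 0.605). Among chaperones, adaptors, degraders and retromer, 9 of 16 were higher and 7 lower (median 0.011). Gga3, an adaptor of endosomal sorting, had a log2 change of -0.18 ± 0.12, and Lrpap1, the chaperone of these receptors, 0.097 ± 0.11.

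The reelin signalling list holds the ligand Reln as well as genes downstream of Vldlr and Lrp8. It had 9 higher and 8 lower values in 17 tested genes (median 0.057), none of which passed. Reln itself was at 140, 137 and 139 CPM in controls and 161, 147 and 161 CPM in knockouts, without overlap (log2 change 0.17 ± 0.098, edgeR adjusted p = 0.776). Cajal-Retzius markers, a list that includes Reln, were higher in 7 of 7 genes, with sums of 194 to 220 CPM in controls and 216 to 242 CPM in knockouts. Reln itself made up most of these sums. The other genes of the list had log2 changes of 0.023 to 0.26, with overlapping groups, and the part of these cells in the Reln values was not tested. Dab1, the adaptor that docks on the tail pattern printed above, had 0.12 ± 0.11, with 148 to 189 CPM in controls and 171 to 186 CPM in knockouts. Nectin3, an adhesion molecule of migrating neurons, had -0.31 ± 0.12, and the small GTPase Rap1b -0.18 ± 0.097.

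Fatty acid uptake and binding, the fate of what the lipase frees, had 3 higher and 10 lower values in 13 tested genes (median -0.11). Acsl4, which activates long-chain fatty acids, was at 69.8, 72.8 and 77.3 CPM in controls and 59.5, 46.9 and 56.9 CPM in knockouts. Its log2 change was -0.43 ± 0.11 (edgeR adjusted p = 0.398, and 0.0261 with the block). Fabp3, a fatty acid-binding protein of neurons and muscle, was at 195, 196 and 184 CPM in controls and 168, 132 and 148 CPM in knockouts. Its log2 change was -0.36 ± 0.11 (edgeR adjusted p = 0.467, and 0.0447 with the block). Both genes were lower in every knockout than in every control.

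The transcription factors that regulate lipid genes had 6 higher and 5 lower values in 11 tested genes (median 0.057), with none called. The smallest p values were those of Rxrb (log2 change -0.16 ± 0.13) and Ppargc1a (0.089 ± 0.11). Targets of the PPAR receptors, fatty acid sensors known to induce Angptl4, were higher in 7 of 9 tested genes and lower in 2 (median 0.14), with none called. The 2 lower were Plin2 (log2 change -0.23 ± 0.16, groups without overlap) and Hilpda (-0.18 ± 0.13). Ppara and Pparg themselves were below the filter, with means of 0.387 and 0.244 CPM in controls and 0.462 and 0.392 CPM in knockouts. Neither Angptl4 nor Lpl was on this list, and their log2 changes went opposite ways (0.58 ± 0.25 and -0.84 ± 0.20). The part of these receptors in the Angptl4 and Lpl values was not tested. Acadm, a dehydrogenase of fatty acid oxidation, was at 10.2, 8.81 and 10.5 CPM in controls and 13.7, 11.5 and 13.3 CPM in knockouts (0.38 ± 0.17, edgeR adjusted p = 0.702). Slc25a20, the mitochondrial acylcarnitine carrier, had 0.27 ± 0.16.

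**Figure D5:**
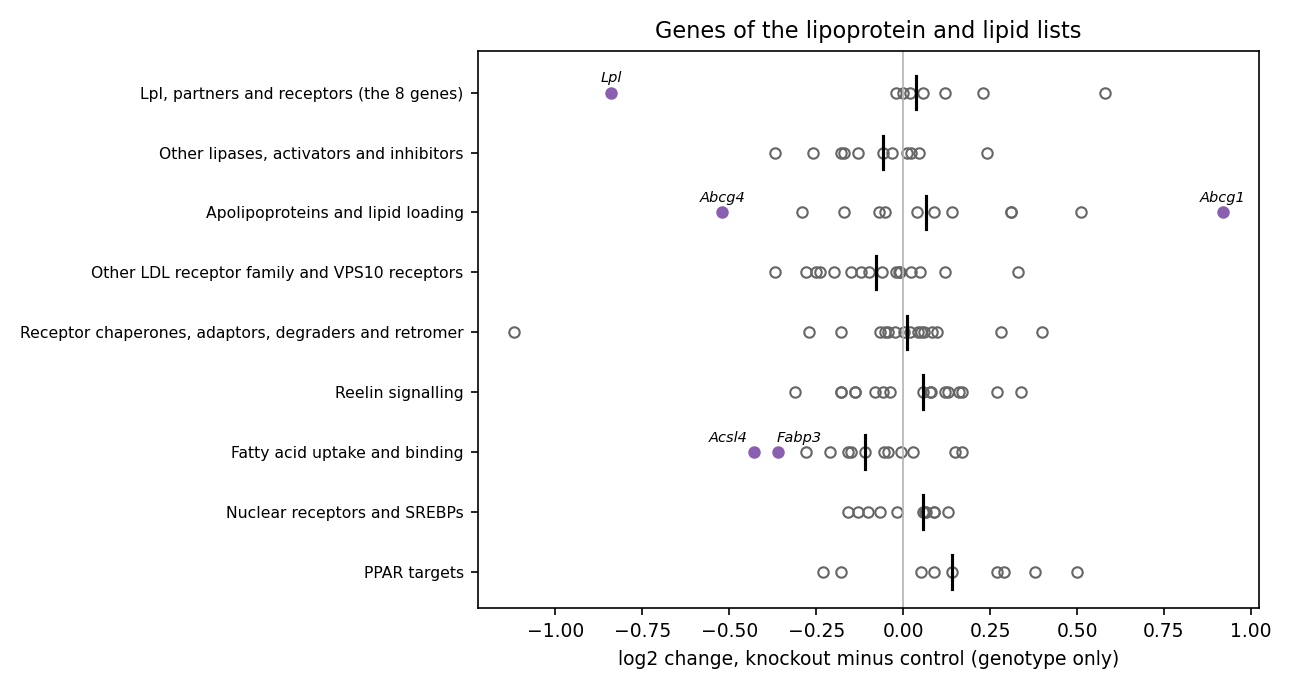
Log2 change, knockout minus control, of the 8 genes (top line) and of each tested gene of the 8 lists in the fit on genotype only, with a black bar at the median and filled points for genes that passed with the letter as a block. Lpl, Abcg4, Acsl4 and Fabp3 lie left of 0 among the filled points and Abcg1 lies right of it, at 0.92.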

How the data were processed

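The authors deposited 1 table of raw counts of reads per gene for each library, unnormalized, as STAR writes them. Per the submitters' processing notes the aligner was STAR 2.5.4 and the build GRCm38 (mm10), and the libraries were made with a strand-specific polyA kit, per the labels' protocols. The annotation release is not given in the sources used here. The strand column with 18.6 times more reads was used. Identifiers were matched without version to GENCODE M21 (52403 of 52550). Multi-mapping reads were not counted in any table.

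Counts were fitted in R 4.3.3 with edgeR 4.0.16 (filterByExpr, TMM, robust quasi-likelihood F-test across all genes, two-sided, Benjamini-Hochberg threshold 0.05). DESeq2 1.42.0 was an alternative. The fits were tested on simulated data: they recovered most of the changed genes with the right sign, but in each fit the share of false calls was above the nominal threshold, and it was highest with the block. The simulated counts held a genotype effect and no letter effect, so they do not show how the block fit behaves on libraries paired by letter. SE is the log2 change divided by the square root of F. The letters pair the libraries by a check of the data. Deviations from group means correlated across genes at 0.417, 0.342 and 0.211 for A, B and C, each above 0.1, and at most -0.031 between different letters. Deviations from a group mean cancel within that group, so positive same-letter values force the different-letter values down. The different-letter values are therefore no separate support for the pairing. The labels do not say what the letters mark. Xist was at 918 and 961 CPM in the libraries of letter B and at most 2.95 CPM in the others, so the letters also differ in sex. Libraries of a group differed by more than sampling noise (lowest ratio of chi-square to its degrees of freedom 7.54). Genes and lists were chosen with earlier results of these data known. Those named are the 8 genes and Slc7a5, and genes of each list called in either fit or else the 2 with the smallest p. Apoe, Reln, Dab1, Lrpap1, Gpihbp1 and the 5 genes nearest to Lpl were named as well. Apoc2, Csf1r, Tmem119, Ctss, Emx1, Slc17a7, Rorb, Rasgrf2, Mef2c, Cux1, Cux2, Zbtb20, Plin2, Hilpda, Ppara and Pparg were added after their values were seen. So were Bcl11b, Sox5, Ccn2, Cplx3 and Gad2. Some genes that this rule names are not reported here.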

Additional observations from a re-analysis of the deposited data

Results flagged for a closer look

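Reads outside annotated exons averaged 27.7% of mapped reads in the knockout libraries and 24% ± 2.18 (SD, n = 3) in the controls, and each knockout value lay above each control value. These reads enter none of the gene counts above.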

How the results depend on the processing

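Over all genes, 5 were called without the block, 126 with the letter as a replicate block, 26 by DESeq2 and 71 without the filter on low counts. Leaving out 1 library at a time gave 1 to 9 calls, and with the block 228, 161 and 77 were called without pair A, B and C. Of the 8 genes, 0 were called without the block, and leaving out 1 library gave 0 to 1. The count was 1, always Lpl, with the block, in DESeq2, without the filter, and with the block without each pair in turn. Lpl was lower under all 14 alternatives (log2 change -1.08 to -0.68). It was not called with RLE scaling, with counts on either strand, or without any 1 library other than knockout A. Lmf1, Angptl4 and Vldlr stayed above 0 under all 14. The other signs turned near 0, none of them called. Lmf2 reached 0.10 with the block without pair B and ran from -0.088 to 0.057 with 1 library left out. Lrp8 was 0.0020 with RLE scaling, 5.9e-04 without the filter and 0.065 with the block without pair B, and ran from -0.19 to 0.12 with 1 library left out. Lrp1 ran from -0.0072 to 0.13 with 1 library left out. Sorl1 was -0.020 and -0.049 with the block without pair B and pair C, and ran from -0.047 to 0.13 with 1 library left out. The cause was not tested. Depth limits Angptl4 and Lmf1 most, with 42 to 110 and 61 to 93 reads per library.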
